A study of Mus musculus with 14 samples.

Results

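Unstimulated cultures of mouse cortical neurons were described from the 5 of 14 libraries that carried neither a drive on activity nor a glutamate receptor blocker. They were chosen by treatment label: 2 libraries (replicates 2 and 3) from cultures given 1% DMSO, and 3 libraries from cultures given 4% (v/v) PK-cleaved NMP peptides, where NMP stands for the neuronal membrane proteasome and PK for the proteinase K used to digest its peptide products. All cultures came from wild-type C57BL/6 mice, were kept for 12 days in vitro and were treated for 1 h before total RNA was depleted of ribosomal RNA and sequenced. Each of the remaining groups had 3 libraries: bicuculline at 20 µM, undigested NMP peptides at 4% (v/v), and the same peptides plus APV at 100 µM. Bicuculline blocks GABA-A receptors and so releases network activity, and APV blocks NMDA receptors. No group with APV alone is labelled, and a DMSO content is given only for the DMSO group. The labels do not state the age of the mice, the number of animals per culture or the proportion of glia.

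Cultures of this kind are prepared from immature cortex and hold excitatory glutamatergic neurons, inhibitory GABAergic neurons and glia that survive or divide in the dish. Over the following weeks the neurons extend neurites, form synapses and exchange fetal receptor and transporter subunits for adult ones. Resting synaptic traffic also keeps a set of immediate-early genes, which are transcribed within minutes of calcium entry, at some level above silence.

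A value is a log2 signal on a scale per exon length, so a step of 1 is a doubling and levels of different genes can be set side by side. Of 45802 features, 17408 had a value in at least 1 baseline library and 14849 had one in all 5. Their median level was 1.84, the highest 10% lay above 5.16 and the highest 1% above 7.81. Percentiles below are places among these 17408 features. Errors are SD over the 5 libraries, except that those of differences between treatment groups are SE from limma. Read depth is unknown, since the table holds no counts, and a feature without a value is treated as not detected rather than absent. Of the features with a value that match RefSeq, 99.4% are protein coding. A value in at least 1 of 14 libraries was present for 17052 of 20367 protein coding features and 58 of 10017 long noncoding ones. The profile is therefore limited to protein coding genes and says little about other RNA of the cultures. All 9 mitochondrially encoded genes of the list and 9 of 10 nuclear long noncoding RNAs had no value in any baseline library. Whether such blanks reflect the cultures or the processing was not tested. The 5 libraries resembled each other closely, with correlations of levels across 10877 genes from 0.988 to 0.998. Genes are not independent replicates, so these are descriptions.

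Before the libraries were described together, the PK-cleaved group was compared with the DMSO group. With limma's moderated test over 10877 genes, 0 were called at a Benjamini-Hochberg adjusted p under 0.05 (0% of genes tested), and 114 had an unadjusted p under 0.05. Slc31a2 and Slc35f4 had p-values among the 3 smallest. Their differences on the log2 scale, PK-cleaved minus DMSO, were -0.55 ± 0.17 (SE) and 0.44 ± 0.12, each with a limma adjusted p of 1. For Fos the difference was -0.06, with a 95% interval from -0.65 to 0.53, and for Arc it was 0.24, from -0.57 to 1.06. With 2 DMSO and 3 PK-cleaved libraries, 0 calls do not show that the groups are alike. Without DMSO replicate 2 the count was 1, the predicted gene 2210418O10Rik, named here after its values were seen.

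The spread between the 5 libraries was small for most genes. The median SD was 0.124 over the 10877 genes tested, 82.9% of them had an SD under 0.2, and 62 (0.570%) had one above 0.5. Among genes other than predicted models, the largest SDs were those of Bcas1 (0.94) and Gpr17 (0.94), both of the oligodendrocyte lineage, Gfap (0.91), the astrocyte intermediate filament, and Plod1 (0.88), a collagen-modifying enzyme. Slc16a3, Grp, Pabpc5, Ddit3, Trib3 and Tmem254c followed at 0.82 to 0.69.

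For several of these genes DMSO replicate 2 and PK-cleaved replicate 3 stood apart from the other 3 libraries, across the treatment labels. Gfap stood at 4.13 in DMSO replicate 2 and 3.97 in PK-cleaved replicate 3, and at 2.68, 2.45 and 2.15 in DMSO replicate 3 and PK-cleaved replicates 1 and 2. Gpr17, a receptor of committed oligodendrocyte precursors, stood at 2.59 and 2.51 in the first pair and at 0.98, 0.62 and 0.95 in the others. The collagen gene Col3a1 was at -0.76 and -0.57 in that pair and between -5.90 and -5.03 in the others. Both libraries lay more than 0.5 above the other 3 in 7 of the 10877 genes and more than 0.5 below them in 27. The genes below included those for the peptides gastrin-releasing peptide (Grp), cortistatin (Cort) and cholecystokinin (Cck). Grp was at 2.80 and 2.78 in the pair and at 4.05, 4.24 and 3.94 in the others. Cck was at 4.91 and 4.90 against 5.70, 6.16 and 6.03. The activity-regulated genes Arc, Egr1 and Vgf were also among the 27, and their values are given with the resting activity genes. Plod1 did not follow this split, with 3.61 and 3.55 in PK-cleaved replicates 1 and 2 and 1.86 to 2.04 in the other 3 libraries. The pair was recognised from measured values, not from a label, and whether culture composition had a part in the resting levels was not tested. In bulk RNA, fewer cells of a type and less RNA per cell cannot be told apart.

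**Figure D1:**
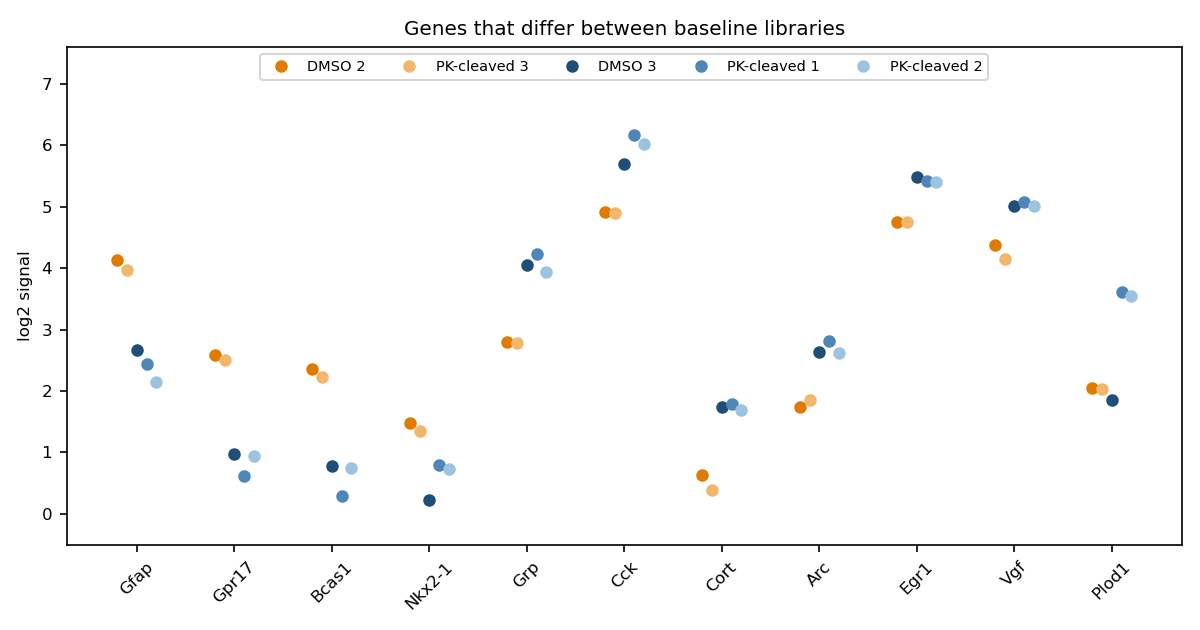
Log2 signal (vertical axis) of 11 genes in each of the 5 baseline libraries, 1 point per library. DMSO replicate 2 and PK-cleaved replicate 3 (orange) lie above the other 3 libraries (blue) for Gfap, Gpr17, Bcas1 and Nkx2-1 and below them for Grp, Cck, Cort, Arc, Egr1 and Vgf, while Plod1 divides the libraries otherwise.

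PK-cleaved replicate 1 also deviated by transcript length. The deviation of its genes from the mean of the 5 libraries correlated with exon length at a Spearman rho of -0.692, against 0.054 to 0.499 in the other libraries. Among those, DMSO replicate 3 (0.350) and PK-cleaved replicate 2 (0.499) had the highest values. In PK-cleaved replicate 1 the trend ran the other way. Its shortest genes, those in the lowest tertile of length, were 0.117 above the mean in the median and its longest were 0.154 below. The channel gene Cacna1b, for example, was at 3.34 in that library and at 3.65 to 3.95 in the others, and the ranges below include such differences.

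The most abundant messages included those for the cytoskeleton of growing neurites, for protein synthesis and for iron storage. Tuba1a, the alpha-tubulin of postmitotic neurons (chr15:98949847-98953501, GRCm38.p6), had the highest signal of all features in every library, 12.0, and made up 1.36% to 1.39% of the summed linear signal. Quantile normalisation gives the highest feature the same value everywhere, so its SD of 0 carries no information. The translation factor Eef1a1 (10.89), gamma-actin Actg1 (10.70), the cyclophilin Ppia (10.63), the beta-tubulin Tubb2b (10.54) and the tubulin-binding stathmin Stmn1 (10.34) came next. Beta-actin, ubiquitin (Ubb), the actin-sequestering thymosins Tmsb4x and Tmsb10, the actin-severing cofilin Cfl1 and Tubb2a were also among the 25 highest. Hspa8, Fth1, Rpl41, Sepw1, Ftl1, Ptms and Rplp1, which include a chaperone, both ferritin chains and ribosomal proteins, were among them too. So were the neuronal growth proteins Gap43 (9.63 ± 0.05) and Stmn2 (9.62 ± 0.08) and the calmodulin genes Calm2 (9.70) and Calm3 (9.51). Glial messages entered the 25 highest through Fabp7 (9.66 ± 0.17), the fatty acid binding protein of radial glia and immature astrocytes, and Cst3 (9.57 ± 0.11). The 25 highest features together held 9.37% to 9.49% of the summed signal, the 100 highest 20.2% to 20.5%, and the 1000 highest 55.9% to 56.3%. Quantile normalisation gives the libraries nearly the same distribution of values, so the narrow ranges of these shares carry no information on agreement between libraries. Of 14 neurite and cytoskeleton genes, 13 were in the highest 10% and their median was 9.20. The exception was Nefh, the heavy neurofilament chain of mature large axons, at 0.99 ± 0.31.

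Neuronal identity genes were high in every library. The median of 12 pan-neuronal genes was 6.44, at percentile 96.4, and 9 of the 12 were in the highest 10%. Tubb3, the neuron-specific beta-tubulin, was at 9.42 ± 0.11, the vesicle fusion protein gene Snap25 at 7.56 ± 0.10 and the calcium sensor gene Syt1 at 7.11 ± 0.18. Dcx, which encodes doublecortin of migrating and young neurons, was still at 6.15 ± 0.27. Rbfox3, which encodes the mature neuronal antigen NeuN, was at 4.19 ± 0.13, and Nefm at 3.69 ± 0.16 was the lowest of the list.

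Excitatory markers had a median of 4.57 over 11 genes. Nrgn, a calmodulin-binding protein of dendritic spines, was at 7.53, 7.51, 7.48, 7.56 and 7.47 in DMSO replicates 2 and 3 and PK-cleaved replicates 1 to 3. The kinase gene Camk2a was at 6.07, 6.67, 6.19, 6.63 and 6.16 in the same order, and the vesicular glutamate transporter gene Slc17a7 at 6.02, 6.38, 6.34, 6.53 and 6.02. Camk2a was thus higher in DMSO replicate 3 and PK-cleaved replicate 2 than in the other 3 libraries, while Nrgn hardly moved. These were also the libraries whose deviations rose most with exon length (Spearman rho 0.350 and 0.499). Camk2a has 5660 exon bases and Nrgn 1453, and the part of length in this difference was not tested. The alternative vesicular transporter Slc17a6, typical of subcortical and young neurons, was at 2.91 ± 0.29, and Slc17a7 exceeded it by 3.35 ± 0.14, a 10.2-fold ratio, in 5 of 5 libraries. Layer genes of both kinds were present. Upper-layer genes had a median of 3.27, led by Mef2c (6.45), Lhx2 (4.87) and Pou3f3 (4.76), and deep-layer genes had one of 3.56, led by Ldb2 (4.89), Ntng2 (4.75) and Crym (3.95). Bcl11b of subcerebral neurons (3.60 ± 0.12) and Tbr1 of corticothalamic neurons (3.56 ± 0.10) had overlapping ranges.

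Inhibitory markers had a median of 3.36 over 20 genes, and this list was uneven. The somatostatin gene Sst was the highest neuropeptide gene of the culture, at 8.32, 8.18, 8.24, 8.14 and 8.33 in DMSO replicates 2 and 3 and PK-cleaved replicates 1 to 3. Npy followed at 6.55 ± 0.28, and the GABA-synthesising enzyme gene Gad1 at 5.71 ± 0.18. The vesicular GABA transporter gene Slc32a1 was at 5.18 ± 0.10, so Slc17a7 exceeded it by 1.08 ± 0.18, or 2.12-fold. Pvalb, which marks fast-spiking interneurons and appears late in development, was the lowest of the list at -1.94, -3.15, -1.89, -2.85 and -2.89. Sst thus exceeded Pvalb by 10.78 ± 0.55 on the log2 scale. Gad1 exceeded Gad2 by 2.29 ± 0.09, or 4.90-fold. Striatal markers had a median of 2.04, with the dopamine-signalling phosphoprotein gene Ppp1r1b at 4.18 ± 0.42 and Isl1 at -1.71 ± 0.30. Of 12 genes for hindbrain and non-neural tissues, 4 had no value in any baseline library, 4 had one in some libraries, and the highest was En2 at -2.44.

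Astrocyte genes were abundant. The median of 15 markers was 4.03, at percentile 78.6, and 5 of them were in the highest 10%. The glial glutamate transporter gene Slc1a3 was at 7.28, 7.38, 7.12, 7.36 and 7.24 in the same library order, the glycolytic enzyme gene Aldoc at 6.46 ± 0.04 and the intermediate filament gene Vim at 6.35 ± 0.11. Slc1a3 exceeded Slc1a2, the transporter that predominates in adult forebrain, by 1.92 ± 0.12, or 3.79-fold. Gfap (chr11:102887336-102897200), with the library differences given above, averaged 3.07 and ranked below 11 of the other 14 markers, while Gjb6, a connexin of mature astrocytes, was lowest at -3.20 ± 0.50. The oligodendrocyte lineage was represented by its early regulators, with Olig1 at 6.21 ± 0.23 and Olig2 at 5.25 ± 0.08. Myelin genes differed: Cnp, which encodes an enzyme of myelin that precursors also express, was at 3.18 ± 0.15, above the median of all features, while Mbp was at 1.50 ± 0.25 and Mag at -2.26 ± 1.03, Mog had a value in 1 library, and Opalin had none.

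Progenitor genes had a median of 2.92, with Fabp7, Sox2 (5.17 ± 0.17) and the Notch target Hes5 (3.42 ± 0.37) highest and Eomes, of intermediate progenitors, at 0.50 ± 0.61. That median is the level of Btg2, a gene also counted among the activity-regulated effectors below. Proliferation genes lay lower, at a median of 1.27, from Top2a at 2.69 ± 0.28 to Bub1 at -0.26 ± 0.22. DMSO replicate 3 had the highest value for 7 of the 8 genes, and PK-cleaved replicate 2 for Bub1.

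Non-neural cells left faint traces. Microglial genes had a median of -3.13. The complement gene C1qc averaged -1.97. Cx3cr1, the fractalkine receptor, was at -3.86 ± 0.43, Csf1r at -4.36 ± 0.44, and the microglia-restricted Tmem119 had a value in 1 of 5 libraries. Endothelial and mural genes had a median of -3.88, with Cldn5 of the blood-brain barrier without a value in any library. Fibroblast and meningeal genes had a median of -2.30, with Pdgfra (3.74 ± 0.17), which oligodendrocyte precursors also express, and Dcn (3.04 ± 0.33) highest and Col3a1 lowest. Blood genes had a median of -6.16. The choroid plexus gene Ttr was between -3.76 and -3.20 in 4 libraries and had no value in DMSO replicate 2.

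**Figure D2:**
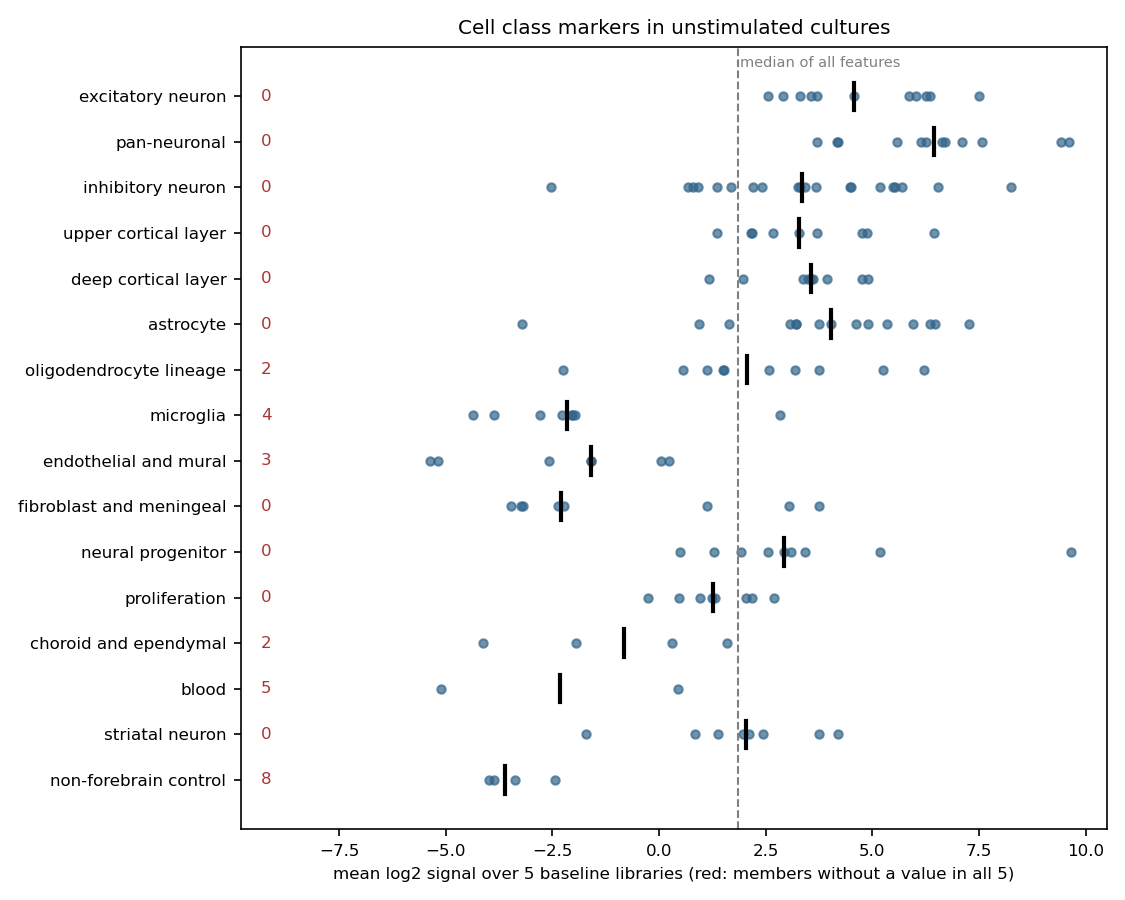
Mean log2 signal over 5 baseline libraries (horizontal axis) of each member with a value in all 5, for 16 marker lists. Black bars are the medians of the points shown, red numbers count members that lack a value in at least 1 library, and the dashed line is the median of all features (1.84). Neuronal and astrocyte lists lie mostly to its right, while microglial, endothelial, blood and non-forebrain lists lie to its left.

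Synaptic genes were among the most abundant groups. The median of 23 presynaptic genes was 6.52 at percentile 96.6, and 15 of them were in the highest 10%. The vesicle protein genes Vamp2 (8.78 ± 0.08) and Syp (8.42 ± 0.13) led. Syt2, the calcium sensor of fast hindbrain and parvalbumin synapses, was lowest at -1.99 ± 0.19. Postsynaptic genes had a median of 4.34. The kinase subunit gene Camk2b (7.17 ± 0.13) exceeded Camk2a by 0.82 ± 0.17, or 1.77-fold, in every library. Among the scaffolds, Dlg4, which encodes PSD-95, was at 7.07 ± 0.12 and exceeded Dlg1 by 4.49 ± 0.09, or 22.5-fold.

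Among NMDA receptor genes the obligatory subunit Grin1 (chr2:25291177-25319187) was highest, at 5.70, 6.09, 5.78, 6.12 and 5.67 in DMSO replicates 2 and 3 and PK-cleaved replicates 1 to 3. Grin2b (chr6:135713221-136173615), the subunit of immature receptors, was at 3.83, 4.30, 3.74, 4.50 and 3.96. Grin2a (chr16:9567901-9996083), which replaces it as cortex matures, was at 0.03, 0.78, -0.62, 0.61 and -0.02. The ranges did not overlap, and Grin2b exceeded Grin2a by 3.91 ± 0.31, or 15.0-fold. The modulatory subunit Grin3a lay between them at 3.38 ± 0.21 and Grin2d at 0.91 ± 0.18. Grin2c was at -3.47 ± 0.36, and Grin3b had a value in 4 libraries, the highest of them -4.00. The order of the 6 genes with a value in all libraries was the same in all 5, and only Grin2d and Grin2a had overlapping ranges.

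AMPA receptor genes were led by Gria1 at 6.01 ± 0.18 and Gria2, whose edited subunit keeps calcium out of the channel, at 5.53 ± 0.08. Gria2 was below Gria1 by 0.28 to 0.71 in 5 of 5 libraries. Gria3 (3.53 ± 0.21) and Gria4 (3.51 ± 0.15) did not differ beyond their spread. Grik5 led the kainate and delta receptor genes at 5.61 ± 0.07. Among metabotropic glutamate receptors, Grm5 was highest at 4.80 ± 0.22, and Grm6, the receptor of retinal bipolar cells, had no value.

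Among GABA-A receptor genes, the alpha subunits prominent in young cortex were abundant, Gabra2 at 5.61 ± 0.12 and Gabra5 at 5.42 ± 0.13. The extrasynaptic Gabrd was at 1.64 ± 0.13, Gabre was lowest at -4.36 ± 0.48, and the cerebellar Gabra6 had a value in 1 library. Both GABA-B subunit genes were high, Gabbr1 at 6.76 ± 0.10 and Gabbr2 at 5.30 ± 0.29. Of the glycine receptor genes, the beta subunit Glrb (5.10 ± 0.05) and the fetal alpha subunit Glra2 (4.15 ± 0.06) were detected in all libraries, whereas the adult spinal Glra1 had values in 4, all of -2.93 or lower.

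The chloride transporters set whether GABA receptors inhibit or depolarise a neuron. Slc12a5 (chr2:164960846-164999731), which encodes the neuronal chloride extruder KCC2, was at 5.38, 5.56, 5.15, 5.61 and 5.40 in the same library order. Slc12a2, which encodes the chloride importer NKCC1 and is also expressed by glia, was at 2.81, 2.63, 2.66, 2.76 and 2.63. KCC2 mRNA thus exceeded NKCC1 mRNA by 2.72 ± 0.18, or 6.61-fold, with no overlap. In the NMDA pair the gene known from immature cortex was the higher one, and in the chloride pair it was the gene known from mature neurons.

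**Figure D3:**
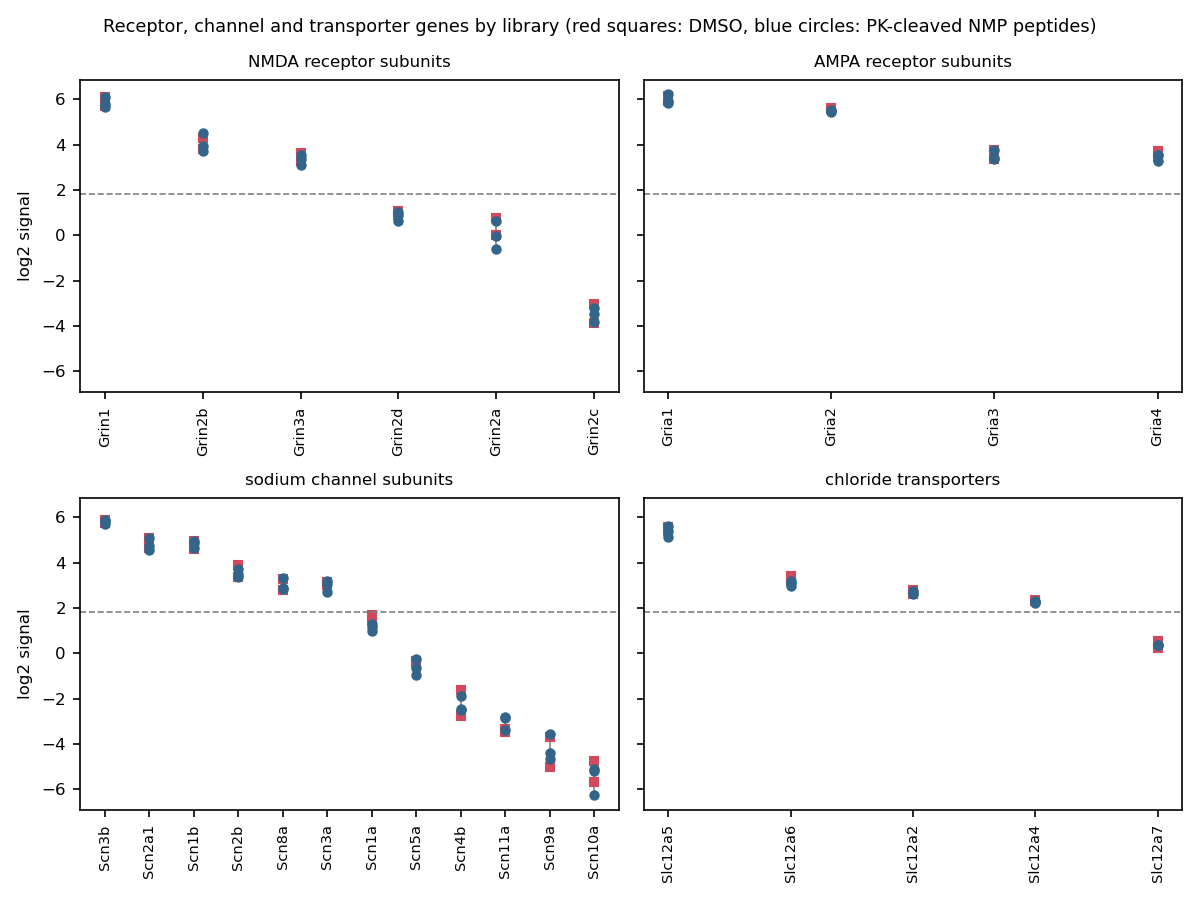
Log2 signal (vertical axis) in each baseline library for the members of 4 gene families with a value in all 5, ordered by mean, with DMSO libraries as red squares, PK-cleaved libraries as blue circles and grey lines for the range. The gap between Grin2b and Grin2a and between Slc12a5 and Slc12a2 exceeds the range of either gene. The dashed line is the median of all features (1.84).

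Voltage-gated channels were present at intermediate levels. Among sodium channel genes, the auxiliary subunit Scn3b was highest at 5.80 ± 0.09, followed by Scn2a1, an alpha subunit of young axons, at 4.81 ± 0.25. Scn2a1 exceeded Scn8a, the alpha subunit of mature nodes and initial segments, by 1.79 ± 0.06 or 3.46-fold, and Scn1a, the main alpha subunit of parvalbumin interneurons, by 3.50 ± 0.27 or 11.3-fold. The peripheral Scn10a was lowest among genes with a value in all libraries, at -5.40 ± 0.59. Calcium channel alpha subunits were led by Cacna1b of N-type channels (3.71 ± 0.25) and Cacna1a of P/Q-type channels (3.16 ± 0.26), and only 1 of 8 neighbouring pairs in that family had ranges that did not overlap. Kcna6 (4.12 ± 0.11), Kcnd2 (3.63 ± 0.10) and Kcnd3 (3.50 ± 0.16) led the Kv1 to Kv4 genes, and Kcnc2, a Kv3 subunit of fast-spiking neurons, was lowest at 0.44 ± 0.31. Hcn2 (4.57), Hcn3 (4.01) and Hcn4 (3.03), pacemaker channel genes, kept this order in all 5 libraries without overlap. Across 17 receptor, channel, transporter and peptide families, 76 of 181 neighbouring pairs had ranges that did not overlap and 110 kept their order in every library.

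Slc6a11, which encodes the GABA transporter GAT-3, was at 6.35 ± 0.07, below Slc1a3. Monoamine carriers were near the lower end, with the serotonin transporter gene Slc6a4 at -3.36 ± 0.14 and the vesicular monoamine transporter gene Slc18a2 at -4.49 ± 0.85. Receptors for modulators were nevertheless present. The highest were Adra2a among monoamine receptors (3.35 ± 0.12), Chrnb2 (3.66 ± 0.09) and Chrm1 (3.42 ± 0.30) among acetylcholine receptors, and Adcyap1r1, the receptor of the peptide PACAP (5.33 ± 0.13). The adenosine receptor gene Adora1 (4.35 ± 0.10), the cannabinoid receptor gene Cnr1 (4.34 ± 0.10) and Ntrk2, the receptor gene for BDNF (4.23 ± 0.12), formed a group with overlapping ranges. The mu-opioid receptor gene Oprm1 was lowest of its family at -3.98 ± 1.11. After Sst and Npy, the secretory granule genes Chga (6.27 ± 0.05) and Chgb (5.97 ± 0.08) led the peptides and secreted factors, and the stress hormone gene Crh was lowest at -2.33 ± 0.38.

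The membrane form of the proteasome from which the NMP peptides derive is described as resting on the glycoproteins GPM6A and GPM6B. Gpm6a was at 8.88 ± 0.07, percentile 99.7, and Gpm6b at 7.44 ± 0.09. The 17 core proteasome genes had a median of 6.37, and 14 of them were in the highest 10%, led by Psmb4 (7.39 ± 0.10). The constitutive catalytic subunit Psmb5 (6.68 ± 0.11) exceeded Psmb8, the subunit that takes its place in the immunoproteasome and was at -2.74 ± 0.47, by 9.42 ± 0.42 on the log2 scale. Stress genes were not uniform. Atf4 (7.38 ± 0.21) and the chaperone gene Hspa5 (7.28 ± 0.11) were high, and the ATF4 target Ddit3 varied, at 4.12, 2.52, 4.25, 3.42 and 3.76 in DMSO replicates 2 and 3 and PK-cleaved replicates 1 to 3. DMSO replicate 3 was lowest. Interferon-response genes were low, with Ifit3 at -1.47 ± 0.42 and Ifit1, Isg15 and Irf7 without a value in 1 or more libraries.

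Immediate-early genes were detected at rest without exception: all 21 transcription factors of the list had a value in 5 of 5 libraries, with a median of 3.19 at percentile 67.1. Jund, the member of the AP-1 family with steady expression, was highest at 6.06 ± 0.17. Egr1 (5.16 ± 0.37) and Jun (5.14 ± 0.21) followed. Fos (chr12:85473890-85477274) was at 4.03, 4.61, 4.57, 4.29 and 3.90 in DMSO replicates 2 and 3 and PK-cleaved replicates 1 to 3, and Junb at 3.81, 4.44, 4.52, 4.37 and 3.69. Npas4 (chr19:4984353-5003439), a factor induced by depolarisation, was at 0.81, 1.81, 1.21, 0.82 and 0.77, below the median of all features in every library. Fosl1 was lowest of the list at -2.50 ± 0.40. Only 3 of 20 neighbouring pairs in the list had ranges that did not overlap.

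Of 19 factors tested, 11 were lower in both libraries with the highest Gfap than in the other 3 and 3 were higher, and of 23 effectors 13 were lower and 0 higher. Of all 10877 genes, 10.2% were lower in both and 20.0% higher. Egr1 was at 4.75 in both DMSO replicate 2 and PK-cleaved replicate 3 and at 5.48, 5.42 and 5.40 in the other 3. Fosb was at 1.74 and 1.80 in that pair and at 2.91, 2.72 and 2.38 in the others, and Nr4a1 at 2.56 and 2.54 against 3.56, 3.39 and 3.07. Among effectors, Arc, which encodes a dendritic protein of synaptic plasticity (chr15:74669081-74672570), was at 1.74 and 1.85 in the pair and at 2.63, 2.81 and 2.62 in the others. Vgf, a secreted peptide precursor, was at 4.38 and 4.14 against 5.01, 5.08 and 5.01. Jund, Jun and Nr4a3 did not follow this pattern: Jund was at 6.23 and 6.08 in the pair and at 5.80, 6.18 and 6.04 in the others. The 25 activity-regulated effectors had a median of 2.91. Rheb (6.16), Plk2 (5.82), Vgf (4.73) and Gadd45g (4.21) were highest, Bdnf was at 1.15 ± 0.39 and Nptx2 at 2.65 ± 0.20, and Ptgs2, the inducible cyclooxygenase gene, was lowest at -2.79 ± 0.37.

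The upstream sequences of 4 of these factors show a motif that many of them share, the core TGACG of the cyclic AMP response element, through which CREB acts. Each is the 250 bases before a RefSeq transcript start (GRCm38.p6), 5′ to 3′ on the strand of the gene, with the core on either strand (TGACG or CGTCA) in capitals. They are from chr12:85473640-85473889 (plus strand) for Fos, chr19:4989972-4990221 (minus strand) for Npas4, where they lie inside the gene span given above, chr15:101266596-101266845 (plus strand) for Nr4a1 and chr8:84978749-84978998 (minus strand) for Junb.
Fos: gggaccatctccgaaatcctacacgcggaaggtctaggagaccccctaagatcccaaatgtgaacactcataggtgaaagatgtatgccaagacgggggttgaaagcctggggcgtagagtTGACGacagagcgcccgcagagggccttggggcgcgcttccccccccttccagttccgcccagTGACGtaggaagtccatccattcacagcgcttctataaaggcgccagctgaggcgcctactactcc
Npas4: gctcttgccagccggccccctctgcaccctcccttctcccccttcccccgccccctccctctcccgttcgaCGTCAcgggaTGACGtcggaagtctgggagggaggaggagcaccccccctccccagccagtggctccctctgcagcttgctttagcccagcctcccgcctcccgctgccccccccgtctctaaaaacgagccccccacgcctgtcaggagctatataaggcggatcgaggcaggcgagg
Nr4a1: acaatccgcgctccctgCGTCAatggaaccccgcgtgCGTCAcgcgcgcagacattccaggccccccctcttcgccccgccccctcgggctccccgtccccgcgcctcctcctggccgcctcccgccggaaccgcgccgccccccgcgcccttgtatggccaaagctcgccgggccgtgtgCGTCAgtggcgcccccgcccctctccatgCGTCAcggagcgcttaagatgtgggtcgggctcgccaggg
Junb: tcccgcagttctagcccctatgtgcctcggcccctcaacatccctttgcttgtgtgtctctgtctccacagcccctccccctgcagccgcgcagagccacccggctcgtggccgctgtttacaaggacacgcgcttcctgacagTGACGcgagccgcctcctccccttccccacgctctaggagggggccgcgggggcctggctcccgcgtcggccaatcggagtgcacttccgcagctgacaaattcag

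Fos held 2 cores, Npas4 2, Nr4a1 4 and Junb 1. Of 21 immediate-early factors 17 had an entry, and 14 of these (82.4%) held the core in the 250 bases before at least 1 of their starts. It was present in 19.8% of 27025 genes with an entry, in 29.2% of the 11303 that had a value in all 5 baseline libraries and in 37.5% of 381 among the 500 highest. The full element TGACGTCA, which contains the core on both strands, was present in 1 of the 17 and in 1.77% of all genes. The CArG box bound by SRF was present in 2 of the 17 and in 1.62% of all genes. A match describes letters in this window and shows no binding, and its relation to the resting levels was not tested.

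The resting levels were then set beside the driven cultures, with baseline taken as the mean of the DMSO and PK-cleaved group means. The 3 comparisons share the baseline libraries and are not independent of each other. Against bicuculline, 76 of 10877 genes were higher (0.699%) and 1 was lower (0.00919%), by limma at an adjusted p under 0.05, and 436 had an unadjusted p under 0.05. Of 19 immediate-early factors tested, 17 were higher, with a median difference of 2.19 over the list and -0.01 over all genes. Of 23 effectors 13 were higher. Npas4 was at 5.12 to 6.08 in the bicuculline libraries, 4.52 ± 0.25 (SE) above baseline or 22.9-fold (limma adjusted p = 1.85e-07). Arc rose by 4.03 ± 0.31, Fosb by 3.92 ± 0.31, Fos by 3.42 ± 0.22 and Junb by 3.31 ± 0.25, and for each the bicuculline and baseline libraries did not overlap. Egr1, at a high resting level, rose by 2.30 ± 0.23, or 4.92-fold, to 7.18 to 7.79. Egr4 rose by 3.18 ± 0.30 and Nr4a1 by 2.98 ± 0.24. Bdnf was 1.44 ± 0.31 above baseline and did not pass the test (limma adjusted p = 0.0517), nor did Nptx2 at 0.49 ± 0.14 (limma adjusted p = 0.293). The gene that fell was Dyrk3, a kinase of stress granule dissolution, by 0.51. Of the excitatory, pan-neuronal, astrocyte and oligodendrocyte lineage lists, 0 of 11, 12, 14 and 9 tested members were called in this comparison. With 0.699% of all genes higher, lists of this size would seldom hold a call, so these counts say little about them. The neural progenitor, monoamine receptor and neuropeptide lists held 1 call each, among 9, 13 and 17 tested members. The progenitor list shares Btg2 with the effectors, and the neuropeptide list shares Vgf, Nrn1, Nppc, Bdnf and Inhba with them. For Bdnf the call turned with the setting. It passed the test with the baseline libraries as 1 group (1.44, limma adjusted p = 0.0269). It also passed without bicuculline replicate 2 (1.77, limma adjusted p = 0.0139), without PK-cleaved replicate 1 (1.56, limma adjusted p = 0.0402) and when the 4 Gfap-highest libraries were left out (1.52, limma adjusted p = 0.0451).

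With NMP peptides, 11 genes were higher than baseline (0.101%) and 0 lower (0%), and 260 had an unadjusted p under 0.05 in limma. They were the immediate-early factors Npas4, Fosb, Fos, Nr4a1, Klf4 and Junb, the effectors Btg2, Dusp1 and Sik1, and Nfil3 and Ppp1r10, the last 2 named after their values were seen. Fosb rose by 2.40 ± 0.31 (SE) and Npas4 by 2.27 ± 0.25, or 4.83-fold. Fos was at 5.71 to 6.56 in these libraries and rose by 1.91 ± 0.22 (limma adjusted p = 0.00318), and Nr4a1 rose by 1.91 ± 0.24 and Junb by 1.82 ± 0.25. Arc was 1.52 ± 0.31 above baseline, Egr4 1.25 ± 0.30, Egr1 1.12 ± 0.23, Bdnf 0.66 ± 0.31 and Nptx2 -0.06 ± 0.14, and none of these passed the test. The count rested on the replicates: it was 7 without NMP peptides replicate 1, 2 (Fos and Npas4) without replicate 2, and 17 without replicate 3. Without replicate 3, Arc at 1.83 and Egr1 at 1.40 passed the test. With the replicate number as a block the count was again 11, and 10 of the genes were the same: Nfil3 did not pass (limma adjusted p = 0.0592) and the effector Cyr61 did (1.33, limma adjusted p = 0.0257).

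With NMP peptides and APV together, 88 genes were higher than baseline (0.809%) and 171 lower (1.57%), and 1940 had an unadjusted p under 0.05 in limma. With every library centred at its own median the split was 122 higher and 127 lower. The largest fall was that of Nppc, the C-type natriuretic peptide gene, by 2.21 on the log2 scale, and Cav1, Avpr1a, Has3 and Vgf fell by 1.36, 1.31, 1.29 and 1.27. The largest rises, with SE, were those of Gpr139 (1.54 ± 0.30), Slc44a5 (1.43 ± 0.12) and Elk1 (1.12 ± 0.09). Of 23 effectors tested 5 were lower and 0 higher, and of 19 immediate-early factors 1 was lower, Npas4, by 1.08 ± 0.25 (limma adjusted p = 0.0342). Its APV libraries, at -0.07 to 0.11, lay below all 5 baseline libraries. Nptx2 fell by 0.67 ± 0.14, but did not pass without DMSO replicate 3 or APV replicates 2 or 3 (limma adjusted p = 0.0675, 0.0882 and 0.0943). Other lists moved beside these. Over all genes 40.1% were above baseline, so most lay below it. Of 14 astrocyte genes tested, 12 were above baseline, with a median difference of 0.17 against -0.03 over all genes, and 0 were called. All 6 cell stress genes tested were below baseline, with a median of -0.61, and 1 was called, Atf4, which fell by 0.68. The part of these in the effectors' values was not tested. Among receptor and channel genes, Grm2 fell by 0.83 ± 0.10, Npy1r by 0.70 ± 0.10, Crhr1 by 0.66 ± 0.11 and Kcnn2 by 0.59 ± 0.12, and Adcyap1r1 rose by 0.28 ± 0.07. Bdnf, at -0.01 to 0.31 against 0.62 to 1.61 at baseline, was 1.05 ± 0.31 lower without passing the test (limma adjusted p = 0.0995). It passed with only the groups compared in the fit (-1.05, limma adjusted p = 0.0396) and when the 4 Gfap-highest libraries were left out (-1.30, limma adjusted p = 0.0385). Fos was 0.49 ± 0.22 above baseline, Junb 0.59 ± 0.25, Egr1 0.69 ± 0.23, Fosb 0.76 ± 0.31, Nr4a1 0.45 ± 0.24, Arc 0.17 ± 0.31 and Egr4 -0.17 ± 0.30, and none passed the test. For Egr1 the APV libraries, at 5.67 to 5.94, nevertheless lay above all 5 baseline libraries. Since peptides and APV were given together, their parts cannot be told apart. The count fell to 144 and 160 without DMSO replicates 2 and 3, and to 97, 86 and 120 without NMP peptides plus APV replicates 1, 2 and 3. Npas4 did not pass the test without DMSO replicate 3, PK-cleaved replicate 1 or 3, or any of the 3 APV libraries, with limma adjusted p from 0.0525 to 0.133, nor with the replicate block (-1.10, limma adjusted p = 0.0577) or with no filter on low genes (-1.08, limma adjusted p = 0.0619).

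**Figure D4:**
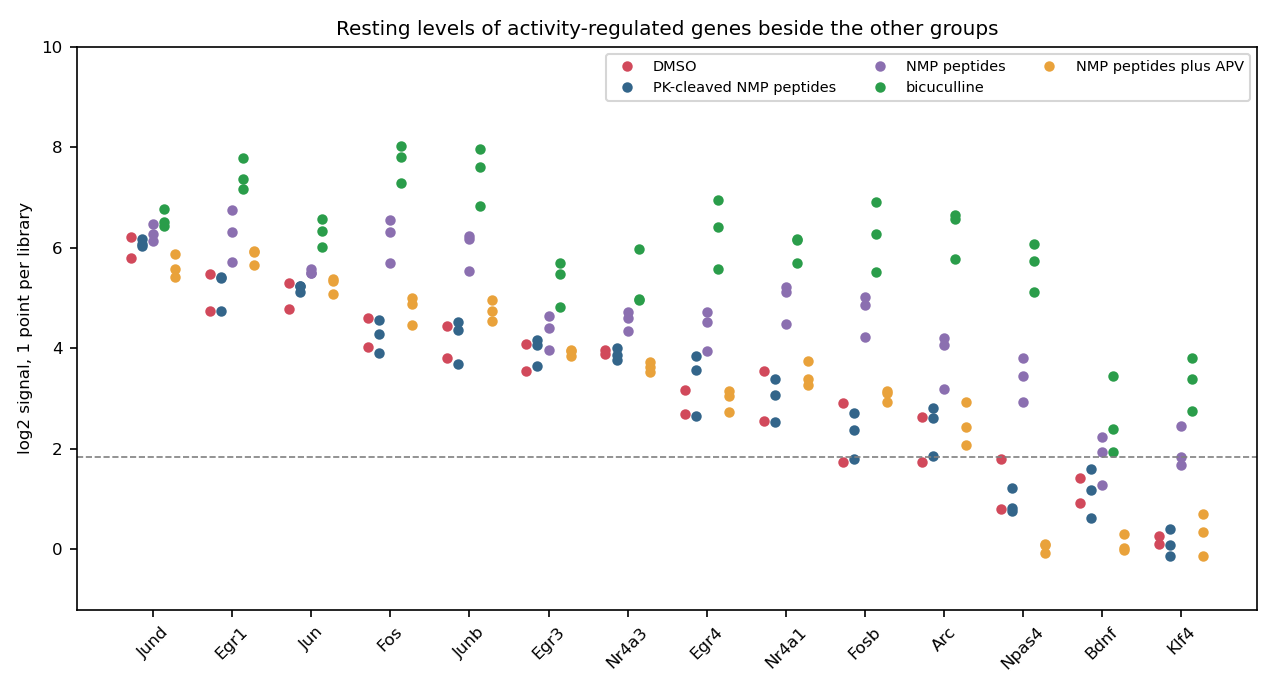
Log2 signal (vertical axis) of 14 activity-regulated genes in all 14 libraries, 1 point per library, coloured by group, with the median of all features (1.84) dashed. At rest the genes span a wide range of levels, and the bicuculline libraries lie above all baseline libraries for each gene shown. The libraries with NMP peptides plus APV lie below all baseline libraries for Npas4 and Bdnf and above all of them for Egr1.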

How the data were processed

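RNA of 14 libraries was measured by paired-end sequencing of 100 bases, per the labels' protocols. The authors deposited 1 table of log2 signals that the name they gave it describes as quantile-normalised, and its 14 libraries share a highest value of 12.0. The submitters' processing notes name GRCm38.p6 as the build. No aligner, counter or annotation is named (not given in the sources used here). The log base was checked on the values: antilogged with base 2 and multiplied by exon kilobases, the 5 baseline libraries sum to 834363 to 899541, against 5.93e+06 to 6.50e+06 with the natural base. The scale per exon length was checked likewise: in 1047 features with a value in only 1 or 2 libraries, value plus log2 exon kilobases had an interquartile range of -3.60 to -3.13. Quantile normalisation hides differences in total RNA, and depth per library is unknown, so no counting error can be given.

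Columns were assigned by the names in the labels. For ranking only, a missing value took the table minimum. Lists (44) and members were chosen with earlier results of these data known, so no list was tested. All 14 libraries entered a limma fit (limma 3.58.1, R 4.3.3) with group means as its terms (empirical Bayes, variance trend, two-sided, Benjamini-Hochberg, adjusted p under 0.05), after dropping the lowest 40% of features. This procedure was tested on simulated data with noise drawn separately for each gene. Deviations that the genes of a library share, such as those with exon length, were not simulated. What the stated biological replicates replicate is not said, so p-values reflect only the spread among these libraries. Named genes were the 25 highest, the extremes and undetected members of each list, any family member, the 10 largest SDs, 10 index genes and the called genes of each comparison, up to 10 list members and 5 in each direction. Grp, Cck, Cort, Egr1, Vgf and Col3a1 were named for their split between libraries after their values were seen. Date-like names (27) were not named, and some genes the rule names are not reported here.

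Same-numbered libraries deviated together between the NMP peptide group and its PK-cleaved counterpart (r = 0.510, 0.499 and 0.613 for replicates 1 to 3), and the PK-cleaved group is part of the baseline that the NMP peptide group is compared with. They did not in all pairs of any other 2 groups with 3 pairs. The DMSO group has only replicates 2 and 3. For these, r was 0.542 and 0.169 with bicuculline and 0.305 and 0.349 with NMP peptides plus APV. With NMP peptides it was -0.341 and -0.480, and with PK-cleaved NMP peptides -0.449 and -0.413. Alternatives were other filters, centring, a replicate block, fewer groups, no variance trend, pooled baseline, other sets of libraries and leaving out each library.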

Additional observations from a re-analysis of the deposited data

Results flagged for a closer look

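Median levels of 42 lists and the levels of 10 index genes were searched for a library far from the other 4, by the gap to its neighbour relative to the range. About 1 group in 20 is picked out by chance at this limit, and 5 values were. Of these, 4 belonged to PK-cleaved replicate 1. Its pan-neuronal median was 6.17, against 6.44 to 6.54 in the other libraries, and its median over pacemaker (HCN) channel genes was 3.26, against 3.57 to 3.61. Its median over activity-regulated effectors was 3.15, against 2.84 to 2.92, and that over core proteasome genes was 6.51, against 6.30 to 6.35. This library is also the one whose deviations fell with exon length (Spearman rho -0.692), and the part of length in these medians was not tested. The fifth value was the median over 7 blood genes, which was -6.02 in DMSO replicate 2 and at the table minimum, the value given to undetected features, in the other 4.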

How the results depend on the processing

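The abundance ranking moved little. Of the 500 highest features, 492 to 500 were shared under every alternative, the highest gene of all 17 families was the same, and 26 or 27 list medians lay above the median of all features (33 when undetected members were left out). Median centring shifts all genes of a library alike, so its 500 shared features were fixed in advance. The other alternatives reuse baseline libraries, so part of the sharing is built in. Of 527 list medians under alternatives, 30 moved by more than their SD between libraries. The largest move was that of nuclear long noncoding RNAs, from the table minimum to 4.30 when undetected members were left out, which leaves 1 gene. The median of immediate-early factors moved from 3.19 to 4.07 over all 14 libraries, which include the stimulated ones. The contrasts depended more on single libraries. PK-cleaved against DMSO gave 0 to 1 calls when a library was left out (1 without DMSO replicate 2). Bicuculline against baseline gave 53 to 84, NMP peptides 2 to 17 and NMP peptides plus APV 86 to 266. For NMP peptides plus APV the count was 139 with the lowest 60% dropped, 157 with only the groups compared and 107 without the 4 Gfap-highest libraries of the series (DMSO replicate 2, PK-cleaved replicate 3, bicuculline replicate 2 and NMP peptides replicate 3), an alternative chosen after seeing the data. Dropping 60% tests fewer genes and leaving out libraries leaves fewer samples. Otherwise the cause was not tested. Without those 4 libraries the DMSO group has 1 library, assumed to vary like the others. With a replicate block the counts were 0, 64, 11 and 172 for PK-cleaved against DMSO, bicuculline, NMP peptides and NMP peptides plus APV. The labels do not say that numbers pair the libraries. No call on the 10 index genes changed direction. With NMP peptides, Arc, Egr1 and Egr4 passed the test without the 4 libraries (1.47, 1.10 and 1.18). Depth is unknown, which limits what can be said of the 2559 features with a value in only some baseline libraries. The alternative for linear values did not apply.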
